A study of Homo sapiens with 4 samples.

Results

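The E2F and DP transcription factors are 10 genes, E2F1 to E2F8, TFDP1 and TFDP2. They were chosen by name, through the Ensembl identifier of each row, from the 58037 genes whose reads were counted in OCI-AML3 cells, and all 10 passed the filter on low counts. OCI-AML3 is an established human AML cell line with a heterozygous NPM1 mutation, a heterozygous DNMT3A mutation and a homozygous NRAS mutation, and every library carried this background. The cells were transfected with sgRNA Ctrl (sgNeg in the labels, 2 libraries) or with sgNPM1A, a CRISPR guide against mutant NPM1 (mtNPM1, 2 libraries), and were harvested on day 3, at 72 hours. The transfected cells were profiled as a bulk culture, and neither the labels nor the methods describe selection of a clone or give the edited share of cells. The comparison asks how KO of mtNPM1 altered the transcripts of the factors that drive entry into S phase, and whether those that activate transcription moved differently from those that repress it.

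E2F proteins bind DNA at the promoters of genes for DNA replication and cell-cycle progression. E2F1, E2F2 and E2F3 activate these genes in late G1 when cyclin-dependent kinases phosphorylate RB1 and free them. E2F4 and E2F5 recruit the pocket proteins RBL1 and RBL2 to keep the same genes silent in quiescent cells, and E2F6 represses as part of a Polycomb complex without any pocket protein. E2F1 to E2F6 bind DNA with a DP partner, encoded by TFDP1 or TFDP2, whereas the atypical E2F7 and E2F8 carry a duplicated DNA-binding domain, need no DP partner and repress E2F genes as S phase proceeds. The genes E2F1, E2F2, E2F7 and E2F8 are themselves known E2F targets.

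Total counts lay between 25069484 and 28276391 per library, and a total of 3 counts was worth 0.106 to 0.120 CPM, the count relative to a TMM-adjusted library total, a limit that covers counting error only. The mRNA of NPM1, which sums the mutant and the wild-type allele, had a log2FC (log2 fold change, sgNPM1A over sgRNA Ctrl) of -0.22, with a standard error of 0.07 and an edgeR adjusted p of 0.0360 (quasi-likelihood F test), a change too small to be called. Gene counts do not separate the alleles, so they do not check the KO of mtNPM1. The markers fitted a myeloid line, with PTPRC and CD33 at 4109 or more and 2069 or more counts in every library. MS4A1, CD3E, HBB and EPCAM were at 0 counts and COL1A1 at 6 or fewer. Of the 7 myeloid genes 3 were called higher (ANPEP, MPO and CSF3R) and 2 lower (HOXA9 and MEIS1). Among all tested genes 10.5% were called higher and 10.3% lower. Maturation markers moved with the condition: 2 of the 3 tested, ITGAM and CSF1R, were higher, CD14 was not called, FCGR3B was at 0, and the summed level of the list went from 45.9 and 52.7 CPM to 84.9 and 95.6 CPM. The part of this shift in the E2F values below was not tested. In bulk RNA, fewer cells in a given cell-cycle phase and less RNA per cell cannot be told apart.

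Promoter sequence was examined because several E2F genes are controlled by E2F proteins. The last 80 bases before the start of transcription are given for the activator genes, whose promoters share E2F words, and for E2F7 and TFDP2, which have none. Sequences are those of RefSeq on GRCh38.p14, read 5′ to 3′ on the strand of the gene, at chr20:33686386-33686465 (minus strand) for E2F1, chr1:23531234-23531313 (minus strand) for E2F2, chr6:20401799-20401878 (plus strand) for E2F3, chr12:77065570-77065649 (minus strand) for E2F7 and chr3:142149545-142149624 (minus strand, the outermost of 3 listed starts) for TFDP2. Capitals mark the E2F words defined below. For E2F3 another listed start, preceded by chr6:20403534-20403613 (plus strand), had no E2F word in the 80 bases before it.
E2F1: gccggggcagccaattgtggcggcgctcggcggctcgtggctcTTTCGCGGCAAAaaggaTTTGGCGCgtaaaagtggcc
E2F2: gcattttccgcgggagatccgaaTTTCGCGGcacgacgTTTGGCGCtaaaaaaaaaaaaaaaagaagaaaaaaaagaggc
E2F3: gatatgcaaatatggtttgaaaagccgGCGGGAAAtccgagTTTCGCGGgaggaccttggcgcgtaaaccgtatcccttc
E2F7: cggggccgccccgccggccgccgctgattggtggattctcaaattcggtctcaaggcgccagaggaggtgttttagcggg
TFDP2: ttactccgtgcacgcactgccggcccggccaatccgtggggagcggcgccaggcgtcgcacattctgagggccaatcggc

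The words searched on both strands were TTTCCCGC, TTTCCCGG, TTTCGCGC, TTTCGCGG, TTTGCCGC, TTTGCCGG, TTTGGCGC and TTTGGCGG. In E2F1 the capitals join TTTCGCGG and an overlapping TTTGCCGC on the opposite strand, and a separate TTTGGCGC lies from 20 to 13 bases before the start. E2F2 held TTTCGCGG and TTTGGCGC, and E2F3 held TTTCCCGC on the opposite strand and TTTCGCGG. Over the 250 bases before the start, at least 1 word was found in 5 of the 8 members that have a promoter in the table (62.5%), namely E2F1, E2F2, E2F3, E2F6 and TFDP1, against 6.32% of 27167 genes with a window. E2F4, E2F7 and TFDP2 had none, and the table has no entry for E2F5 and E2F8. The set was widened to 8 words after these promoters had been viewed, so the share among members is a description only. A match is a description of the letters and does not show binding.

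With sgNPM1A, 3 of the 10 transcripts fell and 0 rose by edgeR, where a call needed an adjusted p below 0.05 together with a rise of at least 25% or a fall of at least 20%. These were E2F8, TFDP2 and E2F1. By the edgeR call, 10.3% of all 15718 tested genes were lower, 10.5% higher and 20.8% in either direction. At an unadjusted edgeR p under 0.05, 4 members were lower, E2F2 being the other one, and 0 were higher. The share of all genes at that unadjusted threshold was not counted, so this number has no background here. DESeq2 called 3 members lower and 0 higher, beside 1142 genes lower and 1190 higher over all genes. Without a threshold on the fold the same 3 members passed, and 26.0% of all genes did. Of the 10 members 8 had a negative log2FC, with a median of -0.15 against 0.00 over all tested genes. In 6 members (E2F1, E2F2, E2F3, E2F6, E2F8 and TFDP2) both sgNPM1A libraries lay below both sgRNA Ctrl libraries, and the conditions overlapped in the other 4. A separation in either direction was seen in 63.1% of all tested genes. With 2 libraries against 2, an exact two-sided permutation test cannot give a p below 0.333, so each call rests on the variance that edgeR shares between genes.

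**Figure D1:**
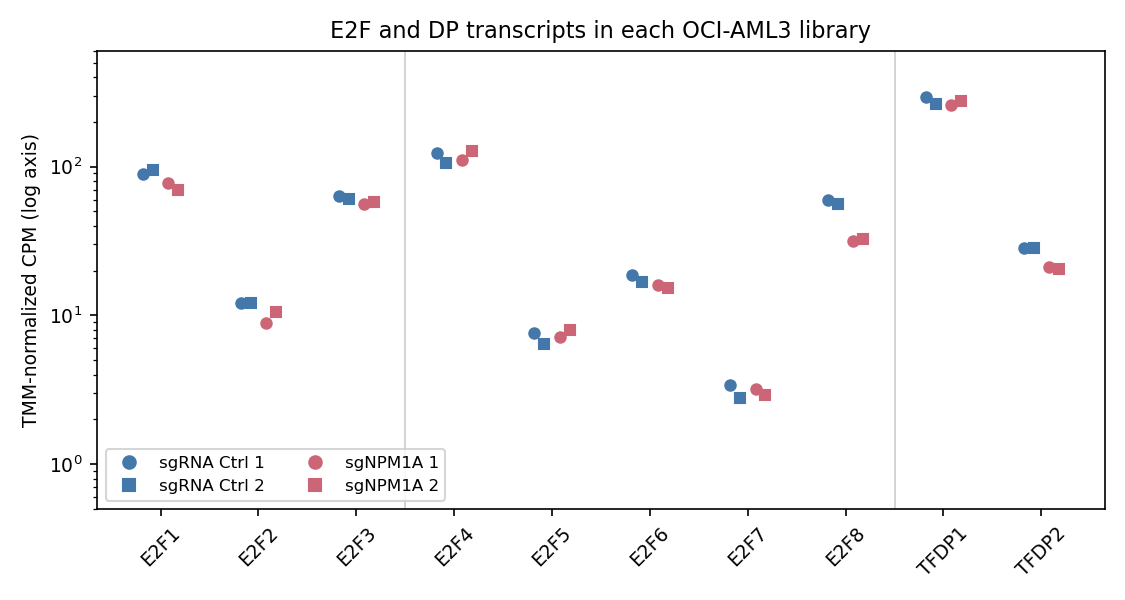
TMM-normalized CPM (log axis) of the 10 E2F and DP genes in each library, with sgRNA Ctrl in blue and sgNPM1A in red and vertical lines between activators, repressors and DP genes. E2F8 shows the widest separation, from 55.9 CPM or more to 32.8 CPM or less, while the 2 conditions overlap in E2F4, E2F5, E2F7 and TFDP1.

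Among the activators, E2F1, which is also known for inducing apoptosis genes, had 89.0 and 94.98 CPM in the sgRNA Ctrl libraries and 77.1 and 69.9 CPM in the sgNPM1A libraries. Its lowest control lay above its highest sgNPM1A library. Means were 92.0 ± 4.21 CPM in sgRNA Ctrl and 73.5 ± 5.11 CPM in sgNPM1A (SD, n = 2 each), and E2F1 fell with a log2FC of -0.32 (standard error 0.08, 95% interval -0.49 to -0.15, edgeR adjusted p = 0.0101). This is a 1.251-fold change, which sits at the fold threshold, and E2F1 kept the call in 9 of 13 alternative analyses. These 13 changed the scaling, filter, tool, block or libraries and kept the thresholds for a call. Among them is a block chosen after the data were seen. Without sgNPM1A replicate 2 the log2FC was -0.25 (adjusted p = 0.212), and without sgRNA Ctrl replicate 2 it was -0.28, below the fold threshold.

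E2F2, an activator with a role in hematopoietic cell division, had 12.2 and 12.0 CPM with sgRNA Ctrl and 8.83 and 10.6 CPM with sgNPM1A. Its log2FC was -0.32 with an interval from -0.60 to -0.04, and the edgeR adjusted p was 0.0855. Single libraries moved this value, to -0.19 (adjusted p = 0.545) without sgNPM1A replicate 1 and to -0.45 (adjusted p = 0.0799) without sgNPM1A replicate 2. E2F3, whose locus encodes the E2F3a and E2F3b proteins that the gene counts sum, had 63.7 and 60.2 CPM with sgRNA Ctrl and 55.8 and 57.8 CPM with sgNPM1A. Its log2FC was -0.12 (95% interval -0.29 to 0.04, edgeR adjusted p = 0.255). All 3 activators were thus below control in both sgNPM1A libraries, and E2F1 alone was called. A separation of this kind, in either direction, held for 63.1% of all tested genes.

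Among the repressors, E2F4, the main E2F of quiescent cells, had 123.8 and 105.8 CPM with sgRNA Ctrl and 111.3 and 126.2 CPM with sgNPM1A. The conditions overlapped, and the log2FC was 0.05 with an interval from -0.15 to 0.25 (edgeR adjusted p = 0.733). E2F5, its closest relative, had 7.55 and 6.37 CPM with sgRNA Ctrl and 7.18 and 7.995 CPM with sgNPM1A. Here too the conditions overlapped, with a log2FC of 0.12 (interval -0.19 to 0.44, adjusted p = 0.576). Of the exon bases of E2F5, 16.5% overlap RBIS on the opposite strand, and other genes hold 16.3% of its 50-base words. Since no source used here states that the counting used the strand, reads of E2F5 and RBIS cannot be told apart there. E2F6 had 18.6 and 16.8 CPM with sgRNA Ctrl and 16.1 and 15.2 CPM with sgNPM1A, a log2FC of -0.18 (interval -0.41 to 0.05, adjusted p = 0.244), and shares 11.6% of its 50-base words with 3 pseudogenes. None of E2F4, E2F5 and E2F6 was called in any of the 13 alternative analyses.

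The atypical repressors are given next, and the difference between their changes was not tested. E2F8 had 60.0 and 55.9 CPM with sgRNA Ctrl and 31.6 and 32.8 CPM with sgNPM1A, so that every sgNPM1A value lay far below every control. Its log2FC of -0.85 (standard error 0.08, 95% interval -1.03 to -0.67, edgeR adjusted p = 1.87e-05) is a decline of 44.5%, and it ranked 332 of 15718 genes by p-value. E2F8 was called in all 13 alternative analyses, with values from -0.90 to -0.80. E2F7, which shares the repressor role of E2F8, had 87 and 72 counts with sgRNA Ctrl and 89 and 81 counts with sgNPM1A. These are 3.42 and 2.78 against 3.19 and 2.92 CPM, and the conditions overlapped. Its log2FC was -0.02, with an interval from -0.44 to 0.40 (adjusted p = 0.953) that does not reach the value of E2F8. Per kb of exon the level of E2F8 was 26.7 and 30.6 times that of E2F7 in the sgRNA Ctrl libraries, and 15.1 and 17.1 times in the sgNPM1A libraries.

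Of the DP genes, TFDP1 encodes the main partner of E2F1 to E2F6 and TFDP2 an alternative one. TFDP1 had 294.9 and 264.0 CPM with sgRNA Ctrl and 259.7 and 275.4 CPM with sgNPM1A, which overlap, with a log2FC of -0.06 (interval -0.22 to 0.10, edgeR adjusted p = 0.579). TFDP2 had 28.2 and 28.3 CPM with sgRNA Ctrl and 21.0 and 20.5 CPM with sgNPM1A, and replicates within a condition were nearly identical. TFDP2 fell with a log2FC of -0.45 (standard error 0.09, 95% interval -0.64 to -0.26, edgeR adjusted p = 0.00316), a decline of 26.7%. TFDP2 was called in all 13 alternative analyses. The level per kb of exon of TFDP1 was 33.2 and 29.6 times that of TFDP2 with sgRNA Ctrl, and 39.3 and 42.8 times with sgNPM1A.

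**Figure D2:**
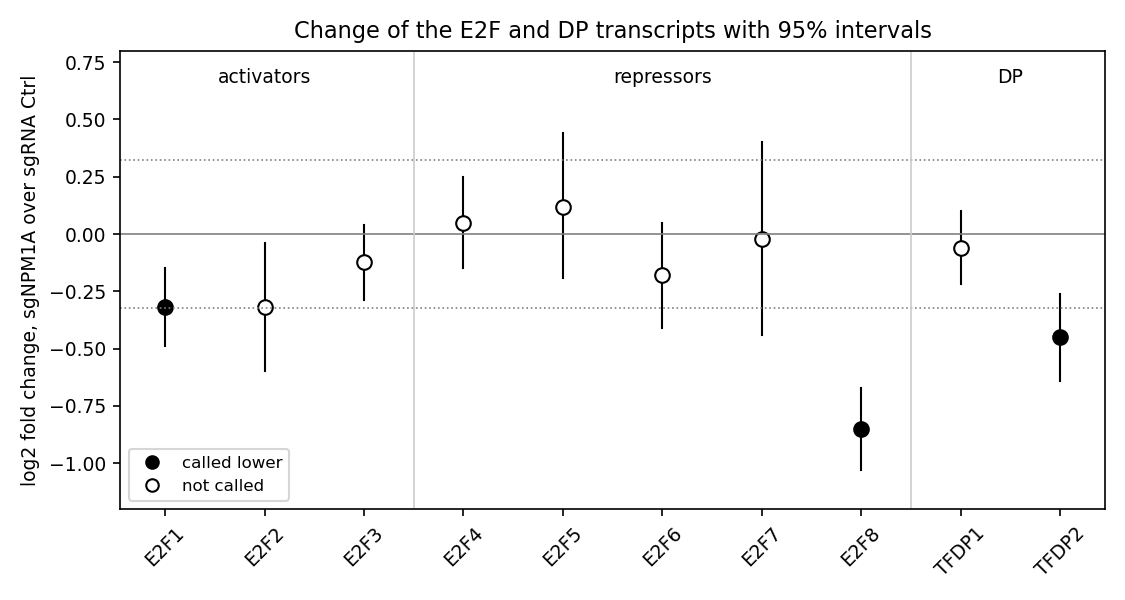
Log2 fold change (sgNPM1A over sgRNA Ctrl) of each E2F and DP gene with its 95% interval from edgeR, where filled points were called lower and dotted lines mark the fold threshold for a call in either direction. E2F8 at -0.85 and TFDP2 at -0.45 lie beyond the lower line, E2F1 at -0.32 lies on it, and the intervals of E2F3 to E2F7 and TFDP1 include 0.

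To compare levels between genes, the normalized CPM of each gene were divided by the kilobases of its annotated exons, which understates genes with many annotated exon bases such as TFDP2 (11.9 kb). On this scale the order in the sgRNA Ctrl libraries was TFDP1 (74.6), E2F1 (34.2), E2F4 (31.9), E2F8 (14.02), E2F3 (11.9), E2F6 (4.35), TFDP2 (2.38), E2F2 (2.22), E2F5 (1.16) and E2F7 (0.493). The ranges of E2F1 and E2F4 overlapped, and those of all other neighbors did not. In the sgNPM1A libraries E2F4 (33.0) stood above E2F1 (27.3), E2F3 (10.9) above E2F8 (7.78) and E2F2 (1.78) next to TFDP2 (1.74). There the ranges of E2F2 and TFDP2 were the only neighbors that overlapped. The level of E2F1 was 0.961 and 1.20 times that of E2F4 with sgRNA Ctrl, and 0.926 and 0.740 times with sgNPM1A.

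Activators and repressors were next compared as groups on the same scale, as a description without a test because the members were chosen. The summed level of E2F1, E2F2 and E2F3 was 47.6 and 49.1 with sgRNA Ctrl and 41.0 and 39.1 with sgNPM1A, a difference of -17.2%. The summed level of E2F4 to E2F8 was 55.3 and 48.6 with sgRNA Ctrl and 44.3 and 48.6 with sgNPM1A, a difference of -10.7%. The log2 ratio of activators to repressors was -0.22 and 0.02 in the sgRNA Ctrl libraries and -0.11 and -0.31 in the sgNPM1A libraries. The conditions overlapped, and the mean difference of -0.11 was smaller than the SD between replicates of a condition, 0.164 with sgRNA Ctrl and 0.145 with sgNPM1A. A shift of the balance between activators and repressors was thus not detectable with these libraries.

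Within the repressors the subgroups were also summed apart, again without a test. The summed level of E2F7 and E2F8 was 15.0 and 13.98 with sgRNA Ctrl and 8.14 and 8.39 with sgNPM1A, and nearly all of it was E2F8. The summed level of E2F4, E2F5 and E2F6 was 40.3 and 34.6 with sgRNA Ctrl and 36.1 and 40.2 with sgNPM1A, which overlap. The atypical factors made up 14.6% and 14.3% of all E2F transcript with sgRNA Ctrl, and 9.55% and 9.58% with sgNPM1A. The log2 ratio of activators to atypical repressors was 1.66 and 1.81 with sgRNA Ctrl and 2.33 and 2.22 with sgNPM1A, without overlap. That of activators to E2F4, E2F5 and E2F6 was 0.24 and 0.50 with sgRNA Ctrl and 0.18 and -0.04 with sgNPM1A, also without overlap. With sgNPM1A the ratio to the atypical repressors was thus higher and the ratio to E2F4 to E2F6 lower, and neither difference was tested.

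**Figure D3:**
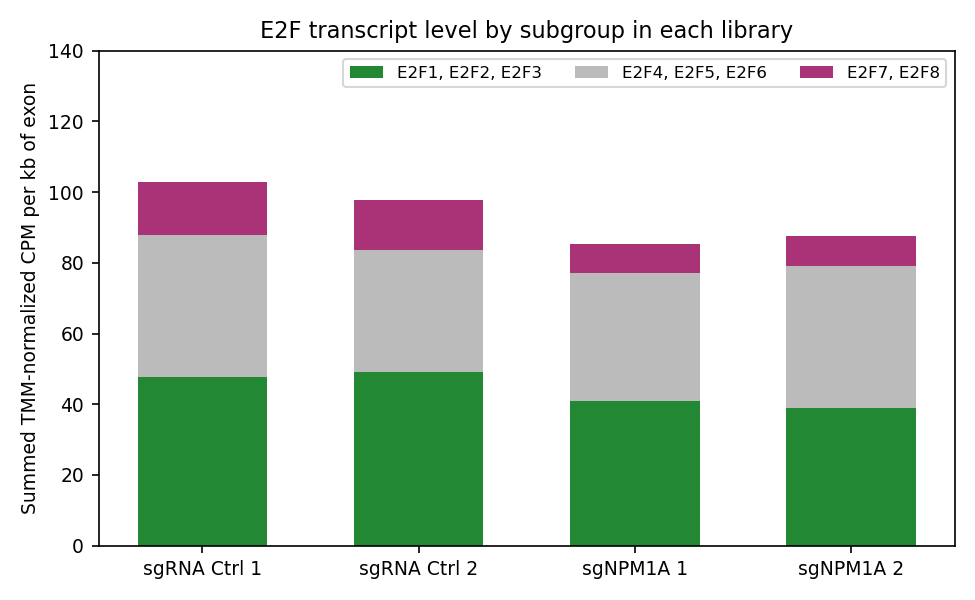
Summed TMM-normalized CPM per kb of exon of the activators (E2F1 to E2F3), of E2F4 to E2F6 and of the atypical repressors (E2F7 and E2F8), stacked for each library. The top segment drops from 13.98 or more in both sgRNA Ctrl libraries to 8.39 or less in both sgNPM1A libraries, while the middle segment overlaps between conditions.

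The genes closest to E2F8 in pattern were found by the Euclidean distance between log2 CPM over the 4 libraries, each gene centered at its mean, among 8856 genes averaging 10 CPM or more. They were KCNN2 (distance 0.0299), SDC2 (0.0325), DTX4 (0.0337), PTK2 (0.0430) and KANK2 (0.0634), with log2FC values from -0.88 to -0.83. With only 4 libraries such a distance reflects little more than an equal fold change.

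Upstream of the E2F factors, the cyclins and their kinases inactivate RB1 and its relatives. Of 11 listed genes (cyclins D1 to D3, E1, E2, A2 and F, CDK2, CDK4, CDK6 and SKP2) 10 were tested, 4 were called lower and none higher, and their median log2FC was -0.15. Over all tested genes 10.3% were called lower. CDK6, a cyclin D partner kinase, had 379.1 ± 14.4 CPM in sgRNA Ctrl and 214.8 ± 3.30 CPM in sgNPM1A (SD, n = 2), and fell with a log2FC of -0.82 (edgeR adjusted p = 4.93e-06). CCND1, which encodes cyclin D1, fell with a log2FC of -0.76 (adjusted p = 8.32e-05), and CDK2, the kinase of cyclins E and A, with -0.45 (adjusted p = 0.000974). CCNE2, a cyclin E gene and E2F target, had 7.94 ± 1.73 CPM in sgRNA Ctrl and 4.78 ± 0.292 CPM in sgNPM1A, and fell with a log2FC of -0.73 (edgeR adjusted p = 0.00924). Without sgRNA Ctrl replicate 1 the value for CCNE2 was -0.49 (adjusted p = 0.0640). CDK4 had a log2FC of 0.09 (interval -0.05 to 0.24) and CCND3 of 0.04 (interval -0.11 to 0.19), and neither was called, while CCND2 had 5 counts or fewer in each library. CCNF, whose product targets E2F proteins for degradation, had a log2FC of -0.05, and CCNE1 of -0.19 (adjusted p = 0.135).

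Of 10 listed pocket protein and MuvB genes, LIN54 was called lower and none higher, with a median log2FC of -0.05. Since 10.3% of all tested genes were called lower, this count was near the background. LIN54, the DNA-binding subunit of the MuvB core, had 31.8 ± 6.40 CPM with sgRNA Ctrl and 20.2 ± 1.78 CPM with sgNPM1A (SD, n = 2), a log2FC of -0.65 (edgeR adjusted p = 0.00348). It was called in all 13 alternative analyses, with values from -0.85 to -0.44. RB1, the pocket protein of the activators, had a log2FC of -0.30 (interval -0.56 to -0.05, adjusted p = 0.0815), and it depended on the control used, with -0.47 (edgeR adjusted p = 0.0121, called lower) without sgRNA Ctrl replicate 2 and -0.12 (adjusted p = 0.451) without sgRNA Ctrl replicate 1. RBL1 with 0.05 (interval -0.15 to 0.25) and RBL2 with 0.15 (interval -0.04 to 0.34) were not called either. MYBL2, an E2F target that joins MuvB in S phase, had a log2FC of -0.01 (interval -0.16 to 0.13).

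The partners of E2F6 in its Polycomb complex were followed with 9 genes, of which 3 were called lower and none higher, with a median log2FC of -0.21. The share of all tested genes called lower was 10.3%, and the difference in share was not tested. YAF2, a RING1-binding subunit, fell with a log2FC of -0.47 (adjusted p = 0.00569), PCGF6, the Polycomb ring finger that defines the complex, with -0.44 (adjusted p = 0.0193) and MGA, its MAX-binding scaffold, with -0.39 (adjusted p = 0.00435), by edgeR in each case. Without sgNPM1A replicate 2 PCGF6 had -0.31 (adjusted p = 0.240) and MGA -0.35 (adjusted p = 0.0731), and without sgRNA Ctrl replicate 1 PCGF6 had -0.42 (adjusted p = 0.0676). YAF2 kept its call in all 13 alternatives.

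Downstream, 31 classical E2F target genes of DNA replication, nucleotide synthesis, repair and apoptosis were followed, and all were tested. Of these 24 had a negative log2FC and the median was -0.13, against 0.00 over all tested genes. The changes were small. Only 2 genes were called, both lower. This share was below the 20.8% of all genes called in either direction and the 10.3% called lower. The study reported negative enrichment scores for E2F targets by gene set enrichment, which was not run here. MCM10, a replication initiation factor, fell with a log2FC of -0.36 (adjusted p = 0.0133) and CDC6, which loads the MCM helicase, with -0.33 (adjusted p = 0.0150), by edgeR in each case. Without sgRNA Ctrl replicate 1 the values were -0.23 (adjusted p = 0.0580) and -0.22 (adjusted p = 0.0602), and without sgNPM1A replicate 1 they were -0.31 (adjusted p = 0.0989) and -0.32 (adjusted p = 0.0912). CDC6 had -0.34 (adjusted p = 0.0696) without sgNPM1A replicate 2.

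With no threshold on the fold, 8 target genes were lower at an adjusted p under 0.05 and 1 was higher. Over all 15718 tested genes 2057 were lower and 2030 higher, 26.0% in either direction. The number of target genes in either direction was near that share, but more of them were lower than higher, and this difference was not tested. These counts depended on single libraries. They were 6 and 1 without sgRNA Ctrl replicate 1, 0 and 0 without sgNPM1A replicate 1 and 1 and 0 without sgNPM1A replicate 2, although the median stayed negative, between -0.16 and -0.06, with each library left out. PCNA, the sliding clamp, had a log2FC of 0.01 (interval -0.13 to 0.16) and RRM2, a ribonucleotide reductase subunit that E2F7 and E2F8 repress, of -0.16 (interval -0.32 to 0.00). An E2F word lay in the 250 bases before the start of 14 of the 27 target genes with a promoter in the table (51.9%). Of these 14 genes 10 had a negative log2FC, with a median of -0.17, and of the 13 without a word 11 did, with a median of -0.11. In each group 1 gene was called lower, and the difference was not tested.

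The mitotic genes, which MuvB controls through the sequence TTTGAA known as the CHR, gave a comparison outside the E2F target list above. Whether these mitotic genes belong to other sets of E2F targets was not checked. TTTGAA lay in the same window, on either strand, in 6 of 9 of these genes with a promoter in the table (66.7%), against 16.1% of all genes with a window. Of the 10 listed genes AURKA, a spindle kinase, was called higher and none lower, and the median log2FC was 0.03. This count was near the background, as 10.5% of all tested genes were called higher. AURKA had 74.8 ± 7.27 CPM in sgRNA Ctrl and 93.9 ± 2.44 CPM in sgNPM1A (SD, n = 2), and rose with a log2FC of 0.33 (edgeR adjusted p = 0.0116). Without sgRNA Ctrl replicate 2 this was 0.23 (adjusted p = 0.0421), below the fold threshold, and without sgNPM1A replicate 2 it was 0.30 (adjusted p = 0.0987). With scaling to the library totals alone it was 0.29, and with upper-quartile scaling 0.32, both below the fold threshold. MKI67, the proliferation marker, had a log2FC of -0.07 (interval -0.25 to 0.10).

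**Figure D4:**
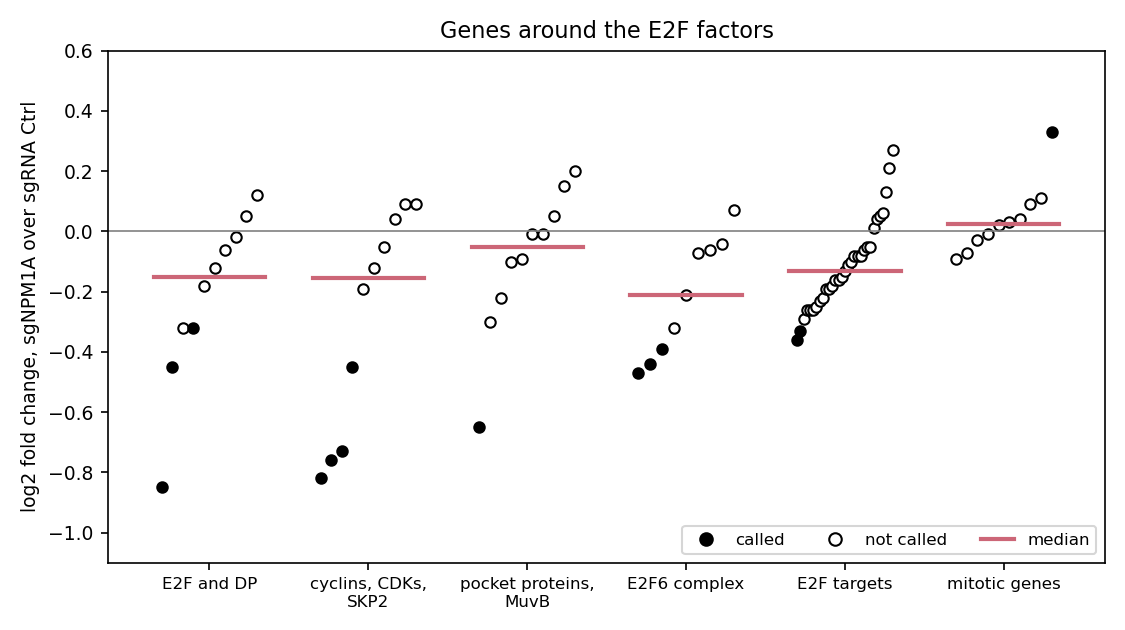
Log2 fold change (sgNPM1A over sgRNA Ctrl) of each tested gene in the E2F and DP family and in 5 lists around it, with called genes filled and the median of each list as a red line. The lowest values are E2F8 at -0.85 and CDK6 at -0.82, while the E2F targets lie in a narrow band from -0.36 to 0.27 and the mitotic genes center near 0.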

How the data were processed

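Total RNA of 4 OCI-AML3 libraries was sequenced as read pairs. The authors mapped the reads to hg38 with STAR and Samtools and deposited raw counts per Ensembl gene in a single table, without normalization. The program that counted the reads, its use of strand and the annotation release are not given in the sources used here. Symbols were matched by identifier for 55646 of 58037 genes, and 0 rows were ERCC spike-ins.

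Counts were analyzed with edgeR 4.0.16 in R 4.3.3 (filterByExpr with a minimum count of 10, TMM, robust quasi-likelihood F test, two-sided), with Benjamini-Hochberg adjustment over all tested genes. The E2F words were chosen partly after viewing the promoters. Exon lengths and 50-base words came from GENCODE v44 transcripts, positions and promoters from RefSeq. The alternatives were DESeq2 1.42.0, limma-trend (limma 3.58.1) and other scalings, filters, blocks and left-out libraries. Changes to the fold threshold were counted apart from these. Scripts were checked on simulated data. The members and gene lists were chosen with earlier results of these data known. All members were named, as were called genes of the lists, and others (among them CDK4, CCND3, CCND2, CCNF, CCNE1, RB1, RBL1, RBL2, MYBL2, PCNA, RRM2 and MKI67) were added after their values were seen. Some listed genes are not reported here by name. The libraries are called biological replicates by the study, which does not state whether they came from separate transfections. The edgeR p-values rest on the spread between these libraries and on the variance shared between genes.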

Additional observations from a re-analysis of the deposited data

How the results depend on the processing

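E2F8 and TFDP2 were called lower in all 13 analyses with other scalings, filters, tools, blocks or a library left out. E2F1 was not called with at least 10 counts in every library or with limma-trend (both 1.249-fold, under the threshold), nor without sgRNA Ctrl replicate 2 or sgNPM1A replicate 2. A fold of at least 2 left 0 members and 0 E2F target genes called lower, 498 genes higher and 502 lower over all genes. Without a fold threshold 8 E2F target genes were lower and 1 higher. With each library left out in turn, from 0 to 4 E2F target genes were called lower and from 0 to 1 higher. The activator to repressor difference lay between -0.23 and 0.00 in those fits. In them the lone library of a condition is assumed to vary like the other condition.

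Deviations of same-numbered libraries had a weak negative correlation over the tested genes (r = -0.130 across genes, which are not replicates). The numbers were therefore not taken as pairs. A fit with a replicate block called 1637 genes higher and 1604 lower and 3 members lower, and 3 E2F target genes were lower at an adjusted p under 0.05 in place of 8. A crossed block, chosen after the data were seen, gave 1955 genes higher and 1918 lower, and 4 members lower, E2F2 being the added one. At this depth E2F7 (72 to 89 counts) had the widest interval of the members.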
